A study of Homo sapiens with 6 samples.

Results

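The genes described here are 40 human genes that make, desaturate, elongate, activate, oxidise or store fatty acids, taken as a fixed list by symbol from a table of 56505 gene rows. All 40 symbols were found in the table, and 36 of them passed a filter on low counts and were tested. RNA was sequenced in 3 libraries labelled shCK5-22 (called shCK5 here), which carried a short hairpin RNA against cytokeratin 5, and in 3 libraries labelled shControl, which carried a control hairpin. Both hairpins were in a plasmid that the labels call pLK0, the cells of all 6 libraries are labelled MDA-MB-468, which is a breast cancer line without hormone receptors or HER2 amplification, and they were grown in serum-containing medium with no other treatment. The hairpin against cytokeratin 5 was a single one, so effects of losing its target and effects of that hairpin on other transcripts cannot be told apart. The labels do not say that replicates were separate cultures, so p-values measure only how far these libraries spread, and that spread may be technical.

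KRT5, the gene of cytokeratin 5, had 17.2, 15.5 and 16.5 CPM (counts per 1000000) in shCK5, against 2056, 2060 and 2017 CPM in shControl. RB1 and SMAD4, genes known to be lost in MDA-MB-468, went against the label in the shCK5 libraries: RB1 averaged 101.0 ± 2.16 CPM in shCK5 and 2.00 ± 0.136 CPM in shControl, and SMAD4 averaged 16.9 ± 0.547 CPM in shCK5 and 0.235 ± 0.138 CPM in shControl (SD, n = 3 each). Whether the groups hold the same cells was not tested on DNA, so the knockdown and a difference between cell populations cannot be told apart in any result below. Total counts lay between 75460940 and 83594772 in shCK5 libraries and between 68810882 and 75529699 in shControl libraries. Levels given as CPM are counts divided by the library size after TMM scaling. A gene is said to rise or fall when it was higher or lower in shCK5 with an adjusted p below 0.05 in edgeR's quasi-likelihood test. In RNA from whole cultures, fewer cells of a type and less RNA per cell cannot be told apart.

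Fatty acids are built in the cytosol from acetyl-CoA, which ATP citrate lyase draws from citrate and acetyl-CoA synthetase from acetate. Acetyl-CoA carboxylase makes malonyl-CoA and fatty acid synthase joins the units into palmitate, which desaturases and elongases then modify. Long-chain acyl-CoA synthetases activate fatty acids for their 2 main fates: entry into mitochondria through carnitine palmitoyltransferases for beta-oxidation, or esterification to glycerol and storage as triglyceride in lipid droplets. Many tumours make fatty acids at a high rate, and fatty acid synthase has long been studied in breast cancer.

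The genes moved in both directions and by very unequal amounts. Of the 36 tested, 17 rose, 15 fell and 4 did not pass. That is 88.9% called, near the 82.7% called among all 19567 genes tested, of which 40.9% rose and 41.7% fell. Values of the groups did not overlap for 32 of the 36, against 84.2% of all genes. Changes beyond 2-fold were found for 10 that rose and 10 that fell, against 44% of all genes in either direction (19.6% rose and 24.4% fell by that much). The median log2 fold change was 0.03 over these 36 genes and -0.02 over all genes tested. Scaled by library size alone, the median of all genes moved to -0.16, and 13 of the 36 genes rose and 20 fell. With that scaling, 7167 of all 19567 genes tested rose and 9118 fell, so the shift toward falls was also seen over all genes.

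**Figure D1:**
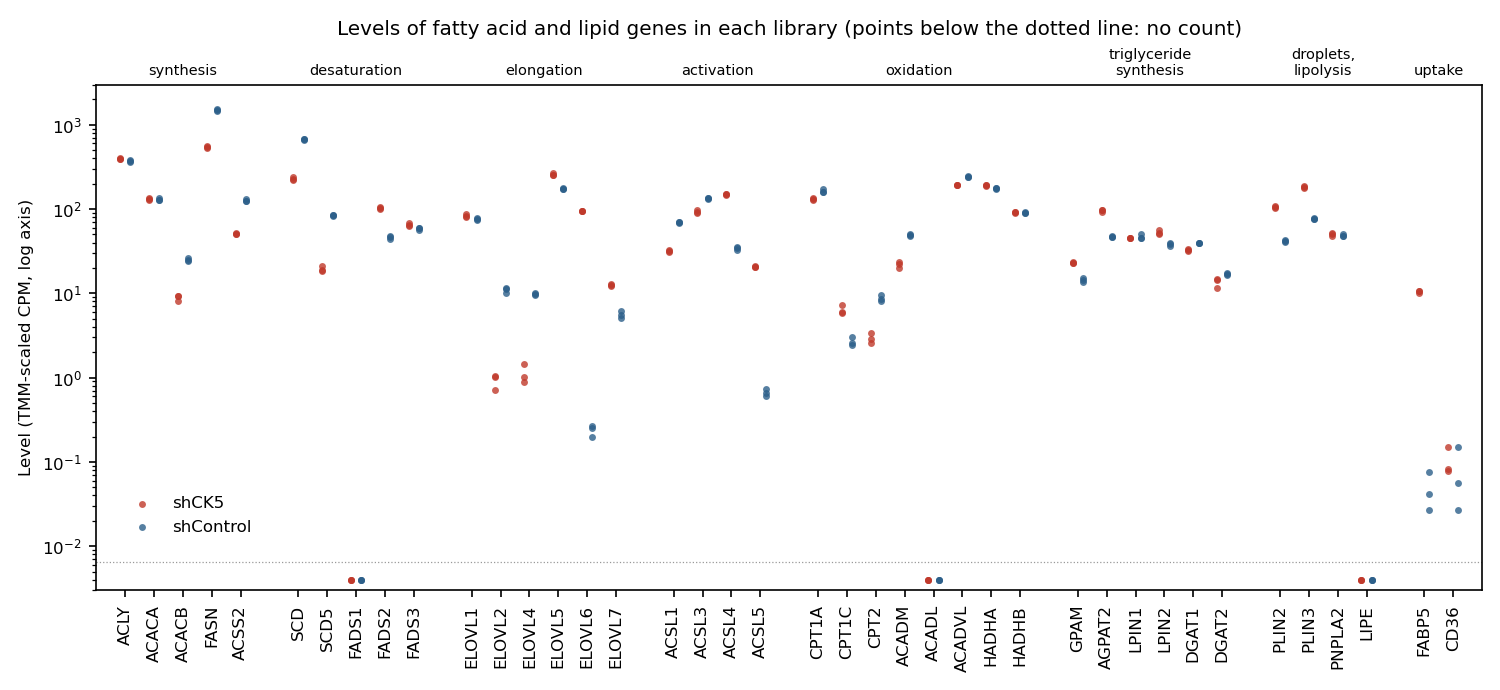
Level of each of the 40 genes in each library, in TMM-scaled CPM on a log axis, with shCK5 points left of shControl points for each gene and genes ordered by role. The libraries of a group lie close together, FASN is the highest in both groups, ELOVL6, ACSL5 and FABP5 are far apart between groups, and FADS1, ACADL and LIPE have no count in any library.

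The enzymes at the start of synthesis did not move together. FASN (chromosome 17, 82078333 to 82098332, minus strand, GRCh38), the gene of fatty acid synthase, had 536.1, 553.3 and 537.7 CPM in shCK5, against 1516, 1464 and 1478 CPM in shControl. Every shCK5 library was far below every shControl library, a 2.74-fold fall (log2 fold change -1.45, SE 0.0257, edgeR adjusted p = 4.57e-25). ACSS2 (chromosome 20, 34872146 to 34927962), whose enzyme makes acetyl-CoA from acetate in the cytosol and nucleus, had 50.7, 51.6 and 50.4 CPM in shCK5, against 125.6, 124.3 and 130.2 CPM in shControl, a 2.49-fold fall. ACACB, the carboxylase isoform tied to the control of mitochondrial fatty acid entry, had 9.27, 9.31 and 8.19 CPM in shCK5, against 25.2, 24.1 and 26.1 CPM in shControl, a 2.81-fold fall. For both genes the groups were well apart.

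The other enzymes listed for this route differed little between groups. ACACA, the main cytosolic acetyl-CoA carboxylase, had 129.5, 136.4 and 133.2 CPM in shCK5, against 134.3, 129.6 and 129.3 CPM in shControl, and the groups overlapped (log2 fold change 0.02, SE 0.0295, edgeR adjusted p = 0.503). ACLY, the gene of ATP citrate lyase, had 388.9, 387.0 and 397.6 CPM in shCK5, against 382.7, 365.7 and 375.0 CPM in shControl. It rose by 0.06 on the log2 scale (SE 0.0261, edgeR adjusted p = 0.0297), but fell by 0.07 when libraries were scaled by size alone (edgeR adjusted p = 0.0131), and the call was lost on leaving out any one of shCK5 replicate 3, shControl replicate 2 and shControl replicate 3 (edgeR adjusted p = 0.0517, 0.113 and 0.0666 for log2 fold changes of 0.06, 0.05 and 0.07). ACACA also turned to -0.115 (edgeR adjusted p = 0.00119) when scaled by size alone.

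The stearoyl-CoA desaturases, which put the first double bond into saturated fatty acids, both fell. SCD (chromosome 10, 100347124 to 100364834) had 238.3, 229.3 and 221.2 CPM in shCK5, against 676.0, 654.1 and 674.8 CPM in shControl, a 2.91-fold fall (log2 fold change -1.54, SE 0.0288, edgeR adjusted p = 1.41e-24). SCD5 (chromosome 4, 82629539 to 82798857), the second human isoform, had 18.2, 21.0 and 18.7 CPM in shCK5, against 83.1, 85.9 and 84.5 CPM in shControl, a 4.38-fold fall. In both the groups stood far apart. SCD5, with the larger fold, had a share of the summed SCD and SCD5 level per kilobase of 9.51% ± 0.778 in shCK5 and 13.6% ± 0.408 in shControl (SD, n = 3 each).

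Of the FADS genes, which lie side by side on chromosome 11, FADS2, the delta-6 desaturase that starts the making of polyunsaturated fatty acids, went the other way. It had 104.8, 101.7 and 101.1 CPM in shCK5, against 48.1, 44.2 and 46.7 CPM in shControl, a 2.21-fold rise with no overlap. FADS3 averaged 64.98 ± 2.58 CPM in shCK5 and 59.1 ± 2.04 CPM in shControl (SD, n = 3 each), a log2 fold change of 0.14 (SE 0.0369) that lost its call with scaling by library size alone (0.00061, edgeR adjusted p = 0.988). FADS1, the delta-5 desaturase, had no count in any library. Exons of FADS1 and FADS2 overlap on opposite strands, as annotated, and how the counting treated strand and overlapping genes is not stated in the sources used, so the 0 is not read as lack of the transcript.

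The promoter of SCD is shown because the gene is the desaturase with the highest level in both groups and fell with FASN and ACSS2. RefSeq windows (GRCh38.p14) of 300 bases, from 250 before to 50 after a transcript start, were found for 36 of the 40 genes, in 59 windows. They were searched on both strands for the sterol response element TCACNCCAC, the E-box CACGTG, the CCAAT box, the GC box GGGCGG and, by name, the PPAR response element, with overlapping matches counted. The sterol response element letters stood in 2 of the 59 windows (one each of ACSL1 and PNPLA2), against 1.13% of all 35116 windows, and the E-box in 4 (ELOVL4, ELOVL5, LPIN2 and PLIN2), against 7.26%. The CCAAT box stood in 21 of the 59 windows, against 34.61% of all windows, and the GC box in 37, against 44.95%. The PPAR response element stood in 0 of the 59, against 0.02% of all windows. Windows of one gene can overlap, and a match is a description of letters, not a binding site. In the sequence, 5′ to 3′ on the plus strand at chr10:100346983-100347282, capitals mark 2 CCAAT boxes, starting 229 and 186 bases before the transcript start, and 2 GC boxes (on the other strand).
SCD: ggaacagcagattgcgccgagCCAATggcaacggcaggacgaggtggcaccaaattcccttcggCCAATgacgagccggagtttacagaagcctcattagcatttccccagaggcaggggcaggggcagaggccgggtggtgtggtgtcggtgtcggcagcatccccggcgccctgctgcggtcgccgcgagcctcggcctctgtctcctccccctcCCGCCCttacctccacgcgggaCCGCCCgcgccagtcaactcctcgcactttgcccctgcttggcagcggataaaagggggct

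The elongases held the largest single change. ELOVL6 (chromosome 4, 110045846 to 110199199, minus strand), which lengthens palmitate and palmitoleate, had 95.2, 95.6 and 95.8 CPM in shCK5, against 0.268, 0.251 and 0.195 CPM in shControl. The shCK5 libraries held 21774 counts in all and the shControl libraries 54, a 397-fold rise (log2 fold change 8.63, SE 0.0738, edgeR adjusted p = 2.91e-31). ELOVL2 (chromosome 6, 10980759 to 11044314), which lengthens long polyunsaturated fatty acids, had 1.06, 0.708 and 1.01 CPM in shCK5, against 10.1, 11.3 and 11.6 CPM in shControl, an 11.9-fold fall. ELOVL4 (chromosome 6, 79914812 to 79947580), needed for very long chains, had 0.882, 1.02 and 1.47 CPM in shCK5, against 9.96, 9.75 and 9.48 CPM in shControl, an 8.70-fold fall. ELOVL7, which acts on saturated long chains, had 12.6, 12.1 and 12.9 CPM in shCK5, against 5.05, 6.12 and 5.55 CPM in shControl, a 2.25-fold rise. All 4 genes kept the groups apart.

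The 2 elongases with the highest level per kilobase in both groups changed by less than 2-fold, and ELOVL5 rose 1.47-fold with no overlap. ELOVL5, which lengthens polyunsaturated fatty acids, averaged 258.0 ± 8.74 CPM in shCK5 and 175.1 ± 3.39 CPM in shControl (SD, n = 3 each; log2 fold change 0.56, SE 0.0289). ELOVL1, an elongase of saturated very long chains, averaged 82.8 ± 3.40 CPM in shCK5 and 75.6 ± 2.56 CPM in shControl (SD, n = 3 each), and its log2 fold change of 0.13 was -0.00468 with scaling by library size alone. ELOVL6 thus made up 11.2% ± 0.205 of the summed level per kilobase of the 7 ELOVL genes in shCK5 and 0.0389% ± 0.00605 in shControl, while ELOVL5 held 57.7% ± 1.29 in shCK5 and 54.8% ± 0.883 in shControl (SD, n = 3 each).

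The flanking genes of ELOVL6 showed no like change. EGF, 33580 bases on its lower side, averaged 1.20 ± 0.231 CPM in shCK5 and 3.61 ± 0.130 CPM in shControl and fell, and ENPEP, 166534 bases on its higher side, averaged 0.112 ± 0.0998 CPM in shCK5 and 0.199 ± 0.0485 CPM in shControl and did not pass (SD, n = 3 each). The promoter window of ELOVL6 is shown as that of the gene with the largest change. It lies at chr4:110198566-110198865, is given 5′ to 3′ on the minus strand, and has its single GC box, 122 bases before the transcript start, in capitals; none of the other motifs searched was found in it.
ELOVL6: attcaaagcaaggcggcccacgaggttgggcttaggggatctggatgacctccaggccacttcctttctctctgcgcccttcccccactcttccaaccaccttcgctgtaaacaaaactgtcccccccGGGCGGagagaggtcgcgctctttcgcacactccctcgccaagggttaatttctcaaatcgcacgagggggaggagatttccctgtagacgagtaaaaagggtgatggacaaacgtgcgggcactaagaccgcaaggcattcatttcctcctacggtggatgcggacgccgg

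Among the acyl-CoA synthetases, which couple fatty acids to coenzyme A, the balance between isoforms changed. ACSL4 (chromosome X, 109624244 to 109733403), the isoform that prefers arachidonic acid and whose product feeds ferroptosis-prone phospholipids, had 148.9, 146.4 and 150.1 CPM in shCK5, against 34.3, 35.6 and 33.0 CPM in shControl, a 4.33-fold rise (log2 fold change 2.11, SE 0.0334, edgeR adjusted p = 4.68e-26). ACSL5 (chromosome 10, 112374018 to 112428380), found on mitochondria and endoplasmic reticulum, had 20.9, 20.7 and 20.8 CPM in shCK5, against 0.725, 0.652 and 0.599 CPM in shControl, a 31.4-fold rise. As annotated, exons of other genes cover 8.64% of the exon bases of ACSL5, so some of its reads may belong to them. ACSL1, the main isoform of fat and liver, had 32.1, 31.2 and 32.2 CPM in shCK5, against 70.5, 68.8 and 70.2 CPM in shControl, a 2.19-fold fall. ACSL3, a droplet-associated isoform, averaged 93.02 ± 4.61 CPM in shCK5 and 135.3 ± 1.82 CPM in shControl (SD, n = 3 each), a log2 fold change of -0.54 (SE 0.0328). No gene of the 4 had overlapping groups.

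Per kilobase, ACSL4 held 50.4% ± 0.676 of the summed ACSL level in shCK5 and 15.1% ± 0.543 in shControl, and ACSL3 held 27.9% ± 0.895 in shCK5 and 52.9% ± 0.517 in shControl. ACSL1 held 11.03% ± 0.106 in shCK5 and 31.5% ± 0.546 in shControl, and ACSL5 held 10.7% ± 0.154 in shCK5 and 0.440% ± 0.0436 in shControl (SD, n = 3 each). ACSL4 was therefore the leading isoform in shCK5 and ACSL3 in shControl. The summed level was 46.0 ± 0.902 CPM per kilobase in shCK5 and 35.3 ± 0.161 CPM per kilobase in shControl. ACSL5 lies 158641 bases from GPAM, which rose by 0.68 on the log2 scale, and 18618 bases from VTI1A, which rose by 0.59.

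**Figure D2:**
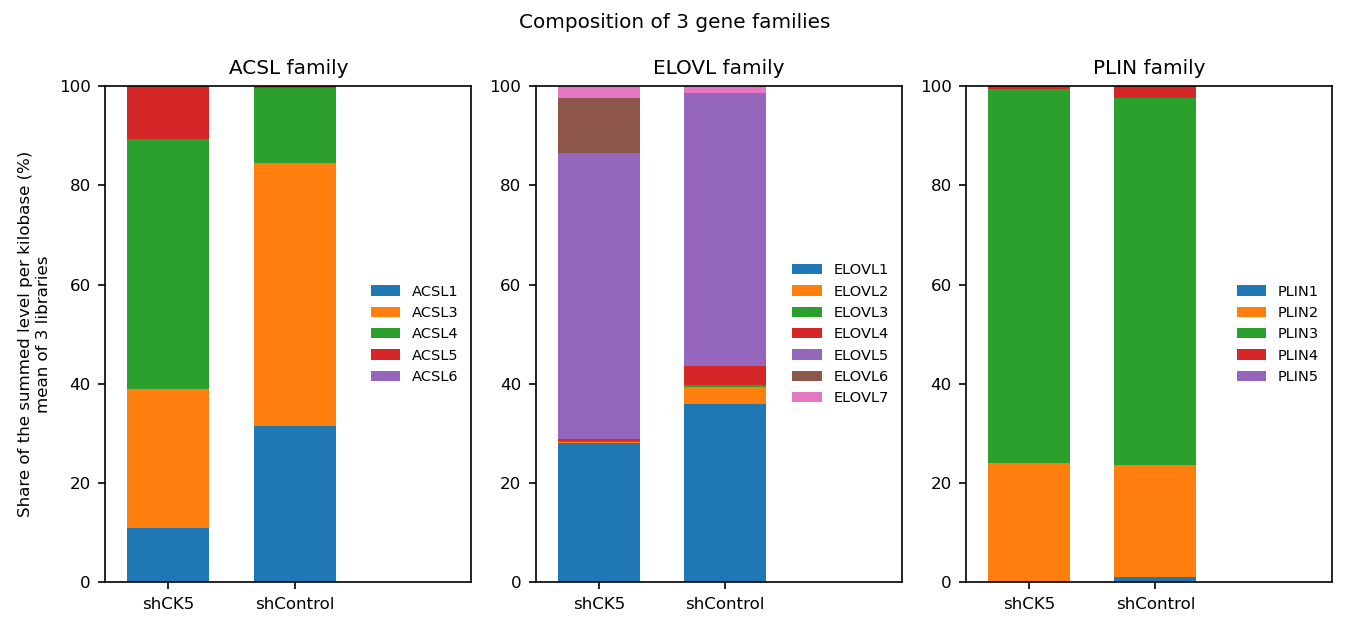
Share of the summed level per kilobase held by each gene of the ACSL, ELOVL and perilipin (PLIN) families, as the mean of 3 libraries, with shCK5 left of shControl in each panel. ACSL4 takes 50.4% in shCK5 and 15.1% in shControl, ELOVL6 takes 11.2% in shCK5 and 0.0389% in shControl, and PLIN3 takes 75.4% in shCK5 and 74.1% in shControl.

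Of 7 tested genes listed for oxidation, 4 fell, 2 rose and 1 did not pass. Of all genes tested, 41.7% fell and 40.9% rose. CPT1A, the outer membrane carnitine palmitoyltransferase that sets the rate of entry, had 133.5, 132.5 and 127.9 CPM in shCK5, against 160.2, 172.2 and 157.5 CPM in shControl, a 1.24-fold fall with no overlap (log2 fold change -0.31, SE 0.0324, edgeR adjusted p = 2.49e-09). CPT2 (chromosome 1, 53196429 to 53214197), its partner on the inner membrane, had 2.85, 2.57 and 3.42 CPM in shCK5, against 8.55, 8.07 and 9.63 CPM in shControl, a 2.97-fold fall. As annotated, exons of other genes cover 11.96% of the exon bases of CPT2, so some of its reads may belong to them. CPT1C, a brain isoform with little catalytic activity, had 5.97, 5.80 and 7.19 CPM in shCK5, against 2.55, 2.46 and 3.07 CPM in shControl, a 2.35-fold rise. For CPT2 and CPT1C too, each shCK5 library lay on the same side of all shControl libraries.

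Acyl-CoA dehydrogenases take the first step of each oxidation cycle, and both of those tested among the 40 genes fell. ACADM (chromosome 1, 75724347 to 75787575), the medium-chain enzyme, had 23.8, 20.2 and 22.2 CPM in shCK5, against 49.5, 48.4 and 50.9 CPM in shControl, a 2.25-fold fall. ACADVL, the very-long-chain enzyme, averaged 192.2 ± 1.87 CPM in shCK5 and 240.9 ± 2.53 CPM in shControl (SD, n = 3 each; log2 fold change -0.33, SE 0.0259). ACADL, the long-chain enzyme, had no count in any library. Another gene covers 5.29% of its exon bases, as annotated, and the 0 is not read as lack of the transcript. HADHA and HADHB, subunits of the mitochondrial trifunctional protein that carries the later steps for long chains, lie head to head on chromosome 2 and moved little: HADHA averaged 191.5 ± 3.31 CPM in shCK5 and 176.2 ± 1.85 CPM in shControl, and HADHB averaged 91.4 ± 1.51 CPM in shCK5 and 90.7 ± 2.36 CPM in shControl (SD, n = 3 each). HADHA passed with a log2 fold change of 0.12, which was -0.02 with scaling by library size alone; HADHB, at 0.01 (edgeR adjusted p = 0.754), turned to -0.126 with it and passed (edgeR adjusted p = 0.000998).

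Genes of glycerolipid synthesis gave 3 rises, 2 falls and 1 that did not pass, where 40.9% of all genes rose and 41.7% fell. AGPAT2 (chromosome 9, 136673143 to 136687423), which adds the second acyl chain to make phosphatidic acid, had 97.1, 97.2 and 92.1 CPM in shCK5, against 46.3, 46.0 and 48.2 CPM in shControl, a 2.04-fold rise with no overlap (log2 fold change 1.03, SE 0.0344, edgeR adjusted p = 2.99e-19). GPAM, the mitochondrial enzyme that adds the first chain, averaged 23.2 ± 0.555 CPM in shCK5 and 14.5 ± 0.638 CPM in shControl (log2 fold change 0.68, SE 0.0534), and the phosphatidate phosphatase gene LPIN2 averaged 53.4 ± 3.39 CPM in shCK5 and 38.1 ± 1.28 CPM in shControl (0.49, SE 0.0434; SD, n = 3 each). LPIN1, the other phosphatidate phosphatase listed, averaged 45.1 ± 0.286 CPM in shCK5 and 47.0 ± 2.86 CPM in shControl (SD, n = 3 each) and did not pass (log2 fold change -0.06; -0.20 and past the threshold with scaling by library size alone).

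The enzymes of the last step of triglyceride synthesis fell slightly. DGAT1 had 32.3, 32.0 and 33.2 CPM in shCK5, against 39.01, 39.55 and 40.02 CPM in shControl, a 1.22-fold fall with no overlap (log2 fold change -0.28, SE 0.0393, edgeR adjusted p = 4.33e-07). DGAT2 averaged 13.6 ± 1.66 CPM in shCK5 and 17.1 ± 0.546 CPM in shControl (SD, n = 3 each), a 1.26-fold fall (log2 fold change -0.33, SE 0.0705). Other exons, as annotated, cover 11.06% of the exon bases of DGAT1, so some of its reads may belong to other genes.

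The perilipins that coat lipid droplets in most cell types rose together. PLIN2 (chromosome 9, 19108375 to 19149290), a standard marker of droplet content, had 102.5, 108.1 and 105.6 CPM in shCK5, against 42.1, 43.1 and 41.2 CPM in shControl, a 2.50-fold rise (log2 fold change 1.32, SE 0.0337, edgeR adjusted p = 9.52e-22). PLIN3 (chromosome 19, 4838341 to 4867768), which moves from cytosol to nascent droplets, had 177.5, 189.7 and 184.1 CPM in shCK5, against 77.3, 76.9 and 76.4 CPM in shControl, a 2.39-fold rise. Antisense annotation covers 17.85% of the exon bases of PLIN3, so some of its reads may belong to that gene. PNPLA2, the lipase that starts triglyceride breakdown, had 51.8, 50.5 and 47.7 CPM in shCK5, against 50.3, 47.3 and 48.0 CPM in shControl, and the groups overlapped (log2 fold change 0.04, SE 0.0391, edgeR adjusted p = 0.296; -0.09 and past the threshold with scaling by library size alone). Antisense annotation also covers 10.43% of the exon bases of PNPLA2. LIPE, the hormone-sensitive lipase, had no count in any library, and its exons overlap the antisense gene LIPE-AS1, so the 0 is not read as lack of the transcript.

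The promoter window of PLIN2 is shown because PLIN2 is the droplet gene with the larger rise and its window is among the few of these genes with an E-box. It lies at chr9:19127443-19127742 and is given 5′ to 3′ on the minus strand. Capitals mark the E-box, 69 bases before the transcript start, and 2 GC boxes, 242 bases before it (on the other strand) and 45 bases before it.
PLIN2: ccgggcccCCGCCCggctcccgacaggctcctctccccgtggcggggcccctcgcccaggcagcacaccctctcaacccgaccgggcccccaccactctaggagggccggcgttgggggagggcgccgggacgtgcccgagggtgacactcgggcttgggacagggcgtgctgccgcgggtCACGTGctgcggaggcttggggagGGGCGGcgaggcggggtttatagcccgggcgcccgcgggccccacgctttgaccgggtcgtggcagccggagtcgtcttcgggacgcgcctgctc

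**Figure D3:**
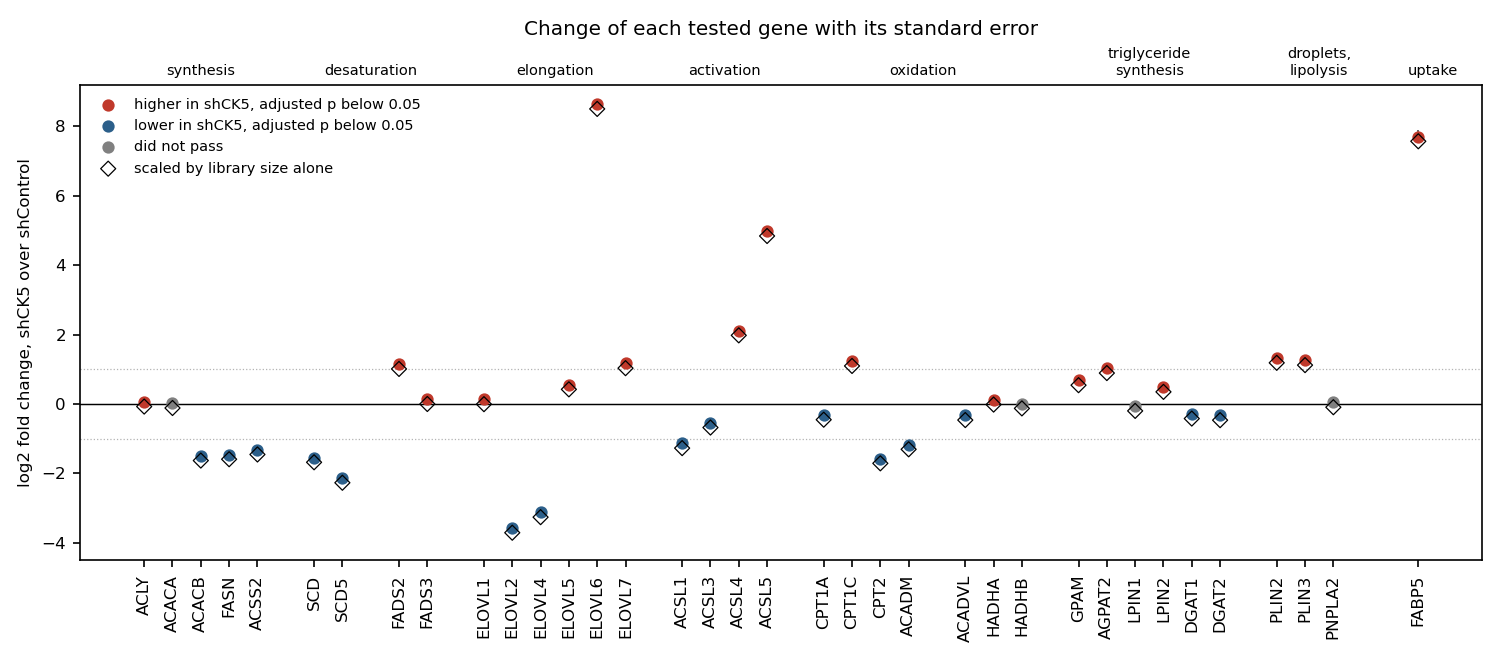
Log2 fold change, shCK5 over shControl, of each of the 36 tested genes with its standard error, by role, with open diamonds for the same value after scaling by library size alone; dotted lines mark 2-fold. Filled points run from -3.57 for ELOVL2 to 8.63 for ELOVL6, and the diamonds lie slightly below them, crossing 0 for ACLY, ACACA, ELOVL1, HADHA, HADHB and PNPLA2.

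Of the genes for uptake and transport, FABP5 (chromosome 8, 81280363 to 81284777), the epidermal fatty acid-binding protein, had 10.53, 10.62 and 10.20 CPM in shCK5, against 0.0268, 0.0752 and 0.0418 CPM in shControl. The counts were 2384 in shCK5 and 11 in shControl, a 208-fold rise (log2 fold change 7.70, SE 0.189, edgeR adjusted p = 4.15e-22). FABP5 passed the filter on low counts only through the shCK5 libraries, so its selection for testing and its difference are linked, and processed pseudogenes of FABP5 make its counts less certain. PAG1, the nearest protein-coding gene on its lower side at 168295 bases, also rose (53.9 ± 1.36 CPM in shCK5 and 0.849 ± 0.109 CPM in shControl, SD, n = 3 each), whereas ZNF704, the next one, fell. CD36, a fatty acid translocase of fat, muscle and macrophages, was near 0 in both groups, with 24 counts in shCK5 and 18 in shControl, and was not tested.

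Levels per kilobase of exon put different genes on top in the 2 groups. In shCK5 the order began with ACLY at 74.98 ± 1.08 CPM per kilobase, ELOVL5 at 67.7 ± 2.29, PLIN3 at 65.3 ± 2.17, FASN at 57.9 ± 1.02 and AGPAT2 at 53.1 ± 1.64 CPM per kilobase (SD, n = 3). ELOVL5 and PLIN3 had overlapping libraries in that group, so their order is not settled. In shControl it began with FASN at 158.7 ± 2.93 CPM per kilobase, SCD at 124.6 ± 2.29, ACLY at 71.8 ± 1.63, ACADVL at 49.5 ± 0.519 and ELOVL5 at 45.9 ± 0.889 CPM per kilobase (SD, n = 3), with no overlap between neighbours. FASN was thus first in shControl and SCD second, and they ranked 4 and 7 in shCK5. In each group 18 of the 40 genes stood at 10 CPM per kilobase or more (21 with the longest transcript as length). With that length ACADVL entered the leading 5 of shCK5 in place of AGPAT2, and HADHA those of shControl in place of ELOVL5.

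Pairs of related genes showed whether isoforms moved unequally. For each of 9 pairs, the log2 ratio of levels per kilobase was computed in each library and compared with an exact two-sided permutation test, which with 3 libraries against 3 cannot give a p below 0.1. In 8 pairs the ratios of the groups did not overlap (exact permutation p = 0.1, 0.1125 after adjustment over the 9 pairs). The ELOVL5 to ELOVL6 ratio differed most, by -8.06 on the log2 scale, then ACSL5 to ACSL1 by 6.10, ACSL4 to ACSL3 by 2.66, CPT1C to CPT1A by 1.54, ACACB to ACACA by -1.52, SCD5 to SCD by -0.59 and LPIN2 to LPIN1 by 0.55. PLIN3 to PLIN2 differed by only -0.07, so that these 2 genes rose nearly in step. The DGAT2 to DGAT1 ratio was -2.20 ± 0.174 in shCK5 and -2.15 ± 0.0422 in shControl (SD, n = 3 each), with overlap (difference -0.05, exact permutation p = 1).

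**Figure D4:**
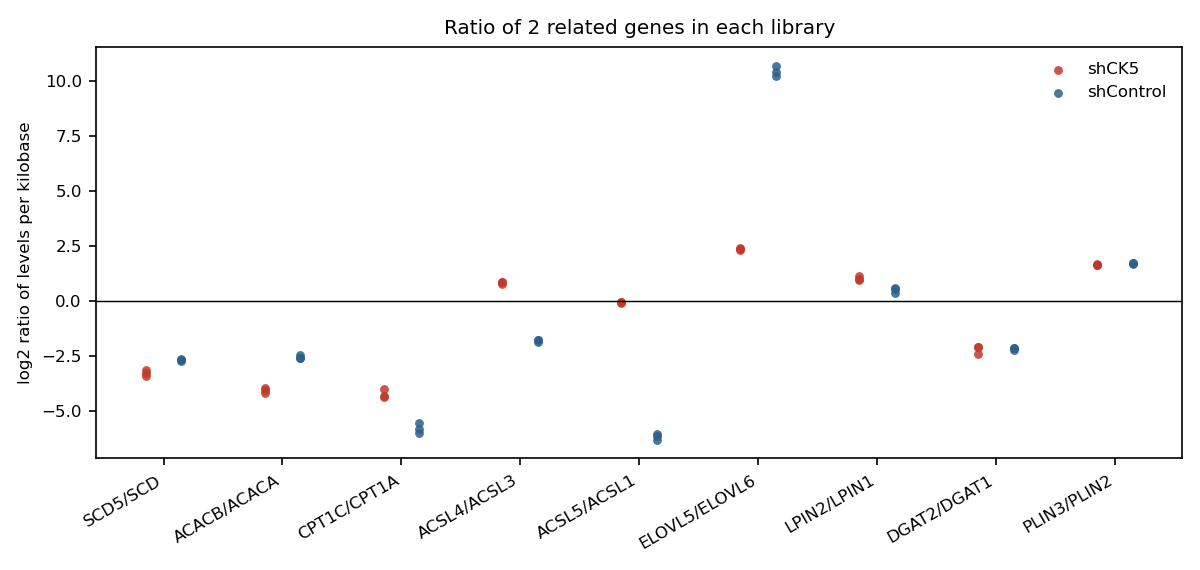
Log2 ratio of the levels per kilobase of 2 related genes in each library, for 9 pairs, with shCK5 points left of shControl points. The groups are furthest apart for ELOVL5 to ELOVL6 and ACSL5 to ACSL1 and overlap for DGAT2 to DGAT1.

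A list of 134 other genes of these pathways was counted beside them. Of its 109 tested genes, 49 rose, 50 fell and 10 did not pass, or 90.8% called, against 82.7% of all genes; the median log2 fold change was -0.03. Of the 9 related genes of glycerolipid synthesis tested, 8 rose and 1 fell, with a median log2 fold change of 1.16, against 40.9% of all genes that rose; the 6 glycerolipid genes described above gave 3 rises and 2 falls, with a median of 0.21. GPAT3, a glycerol-3-phosphate acyltransferase of the endoplasmic reticulum, averaged 39.8 ± 0.530 CPM in shCK5 and 1.33 ± 0.315 CPM in shControl. GPAT2, a mitochondrial relative, averaged 10.6 ± 0.154 CPM in shCK5 and 0.124 ± 0.0434 CPM in shControl, and MOGAT2, which acylates monoacylglycerol and was the one that fell, averaged 0.0619 ± 0.0182 CPM in shCK5 and 3.41 ± 0.269 CPM in shControl (SD, n = 3 each). GPAT2 passed the filter on low counts only through shCK5 and MOGAT2 only through shControl, so for both the selection and the difference are linked.

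Genes that supply or extend carbon chains were mixed. Of 12 tested around synthesis, 5 rose, 6 fell and 1 did not pass, where 40.9% of all genes rose and 41.7% fell. IDH1, a cytosolic source of NADPH, averaged 26.3 ± 1.16 CPM in shCK5 and 146.2 ± 1.88 CPM in shControl (SD, n = 3 each). The mitochondrial acetyl-CoA synthetase ACSS1 averaged 12.2 ± 0.183 CPM in shCK5 and 1.24 ± 0.301 CPM in shControl, and its relative ACSS3 averaged 14.7 ± 0.550 CPM in shCK5 and 0.0715 ± 0.0697 CPM in shControl (SD, n = 3 each; log2 fold change 7.66, 8.501 without shControl replicate 3 and 8.41 with limma voom). ACSS3, with 16 counts in all shControl libraries, passed the filter on low counts only through shCK5, so its selection and its difference are linked. Of 6 tested partners of the elongases, 2 rose and 4 fell. Among those that fell, HACD4 passed the filter only through shControl, so its selection and its fall are linked. The dehydratase gene HACD1 rose, with a log2 fold change of 2.24 (SE 0.0493). Its relative HACD2 and the enoyl reductase gene TECR fell, with log2 fold changes of -1.52 (SE 0.0328) for HACD2 and -0.68 (SE 0.0305) for TECR.

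Around activation, 4 of 13 tested genes rose and 9 fell. For this role and the next ones, the shares over all genes tested were 40.9% that rose and 41.7% that fell. The fatty acid transport proteins SLC27A2 and SLC27A3 fell, with log2 fold changes of -4.37 (SE 0.157) for SLC27A2 and -2.95 (SE 0.0761) for SLC27A3. SLC27A1 and SLC27A5 also fell. SLC27A4, the tested gene of this family with the highest CPM in both groups, rose. It averaged 92.9 ± 1.05 CPM in shCK5 and 37.4 ± 1.79 CPM in shControl (SD, n = 3 each). The thioesterase gene ACOT11 fell by 2.52 (SE 0.132), with means of 1.09 CPM in shCK5 and 6.24 CPM in shControl. ACOT2, ACOT4 and ACOT13 also fell, whereas ACOT7, ACOT8 and ACOT9 rose. ACOT9 rose by 2.49 (SE 0.0359), with means of 105.2 CPM in shCK5 and 18.7 CPM in shControl. Mitochondrial oxidation genes outside the 40 gave 8 that rose, 6 that fell and 3 that did not pass of 17 tested. ECI2, an enoyl-CoA isomerase, rose by 1.58 (SE 0.138), and ACADS, the short-chain dehydrogenase, rose by 1.43 (SE 0.0794), opposite to ACADM. Peroxisomal genes gave 6 that rose, 7 that fell and 1 that did not pass of 14 tested. Their largest changes were rises of ACOX2, PHYH and CROT, by 1.595, 1.53 and 1.43 (SE 0.0708 to 0.169).

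Other droplet genes gave 5 that rose, 6 that fell and 1 that did not pass of 12 tested. Among all genes, 40.9% rose and 41.7% fell. CIDEC and FITM1, which fell, passed the filter on low counts only through shControl, so their selection and their fall are linked. ABHD5, the coactivator of PNPLA2, averaged 73.7 ± 2.22 CPM in shCK5 and 21.6 ± 1.06 CPM in shControl, and the droplet-associated dehydrogenase HSD17B11 averaged 22.2 ± 0.723 CPM in shCK5 and 0.505 ± 0.0281 CPM in shControl. PLIN1, the perilipin of fat cells, averaged 0.226 ± 0.0886 CPM in shCK5 and 1.56 ± 0.140 CPM in shControl and so moved against PLIN2 and PLIN3 (SD, n = 3 each). Of 7 tested uptake and binding genes, 2 rose, 3 fell and 2 did not pass. ACBD5, a peroxisomal acyl-CoA binding protein, rose by 1.13 (SE 0.0434), and the lipoprotein receptor VLDLR (log2 fold change -0.996, SE 0.0593) and the acyl-CoA binding protein DBI (-0.97, SE 0.0323) fell.

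Regulators of these pathways gave 9 that rose, 8 that fell and 2 that did not pass of 19 tested. These counts are near the shares of all genes, of which 40.9% rose and 41.7% fell. SREBF1, whose product activates fatty acid synthesis genes, averaged 115.9 ± 4.80 CPM in shCK5 and 86.0 ± 2.68 CPM in shControl (log2 fold change 0.43, SE 0.0335), whereas SREBF2, whose product mainly drives sterol synthesis, averaged 113.7 ± 4.92 CPM in shCK5 and 348.8 ± 9.51 CPM in shControl (-1.62, SE 0.0316; SD, n = 3 each). INSIG1, which retains both in the endoplasmic reticulum, fell by 0.28 (SE 0.0415). PPARG, the nuclear receptor of fat storage, averaged 105.4 ± 2.49 CPM in shCK5 and 27.0 ± 0.742 CPM in shControl, PPARD averaged 140.2 ± 1.52 CPM in shCK5 and 69.9 ± 1.38 CPM in shControl, and PPARA, the receptor tied to fatty acid oxidation, averaged 25.6 ± 1.77 CPM in shCK5 and 62.4 ± 1.96 CPM in shControl (SD, n = 3 each). The coactivator gene PPARGC1A and PRKAG2, a subunit of AMP-activated kinase, rose, with log2 fold changes of 2.32 (SE 0.248) for PPARGC1A and 1.72 (SE 0.0363) for PRKAG2.

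**Figure D5:**
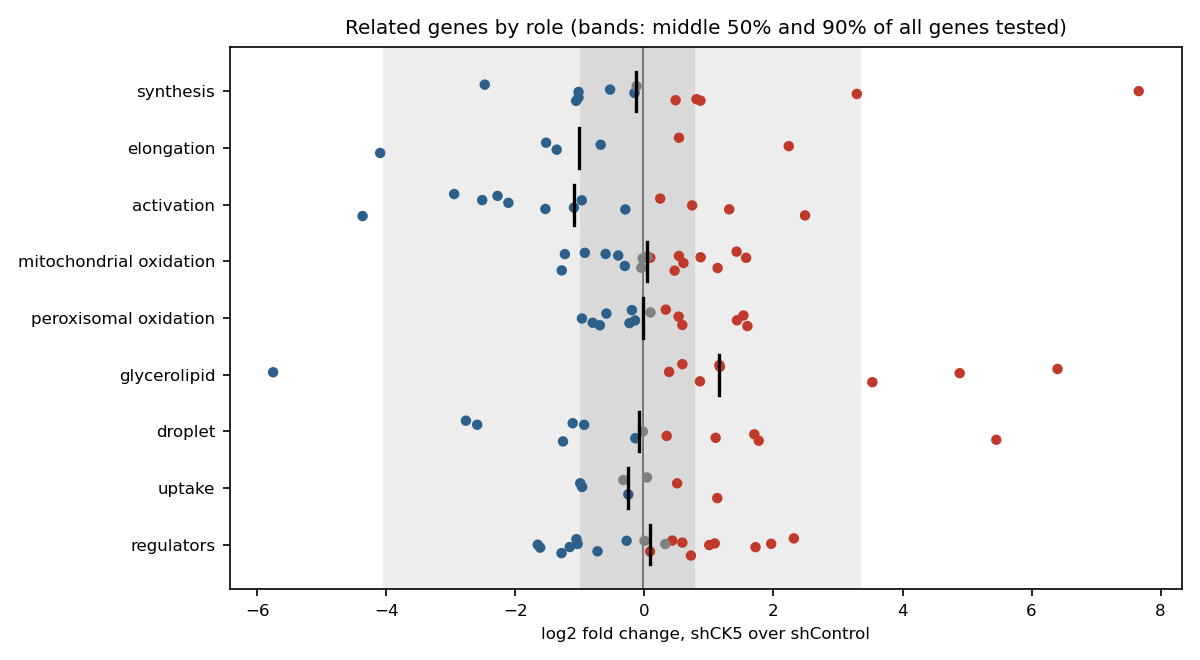
Log2 fold change, shCK5 over shControl, of the 109 tested related genes by role; red points rose, blue points fell and grey points did not pass, and black bars are the medians of each role. Grey bands hold the middle 50% and 90% of all genes tested (-0.98 to 0.77 and -4.04 to 3.34). The role medians run from -1.09 for activation to 1.16 for glycerolipid synthesis, and points of every role lie on both sides of 0.

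Markers of cell identity moved beside these genes, and their part in the results was not tested. All 10 epithelial markers listed fell, with summed levels of 1458 to 1487 CPM in shCK5 and 9233 to 9504 CPM in shControl, and all 8 mesenchymal markers rose, with 1842 to 1878 CPM in shCK5 and 55.9 to 59.8 CPM in shControl. Of all genes tested, 41.7% fell and 40.9% rose. ZEB2, SNAI2, CDH2, COL6A1 and COL6A2 had 0 to 10 counts in all in shControl. They passed the filter on low counts only through shCK5, so their selection and their rise are linked. Of 11 fat cell markers, 7 were tested, 1 rose and 6 fell. Among those that fell, LEP, CIDEC and CEBPA passed the filter only through shControl, so their selection and their fall are linked. The sum of the 11 fat cell markers was 106.9 to 111.7 CPM in shCK5 and 39.8 to 42.1 CPM in shControl and consisted mostly of PPARG. The defining fat cell genes were at or near 0: ADIPOQ had 0 counts in shCK5 and 2 in shControl, and FABP4 had none in any library. Of the other markers, 9 fibroblast genes summed to 12.3 to 14.4 CPM in shCK5 and 19.2 to 20.2 CPM in shControl, 8 leukocyte genes to 1.36 to 1.71 CPM in shCK5 and 5.68 to 6.95 CPM in shControl, and 7 endothelial genes to 6.43 to 7.29 CPM in shCK5 and 4.61 to 6.62 CPM in shControl. The 3 fibroblast genes tested moved both ways. PDGFRB rose (means 4.36 CPM in shCK5 and 0.476 CPM in shControl). COL1A1 (8.70 CPM in shCK5 and 12.9 CPM in shControl) and FAP (0.253 CPM in shCK5 and 6.04 CPM in shControl) fell. The share of counts from the mitochondrial genome was 7.84% to 8.72% in shCK5 and 10.3% to 10.7% in shControl.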

How the data were processed

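RNA was sequenced in 3 shCK5 and 3 shControl libraries, grouped by the sample titles. The authors deposited whole-number counts by gene symbol, not normalized, with columns named after sorted alignments. Cutadapt, STAR, SAMtools, Cufflinks and the build GRCh38 are listed in the submitters' processing notes, while the counting program, its strand setting and its annotation are not stated in the sources used. Between 63.1% and 65% of counts above 20 were even, so both mates of a fragment may have been counted.

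Counts were analysed in R 4.3.3 with edgeR 4.0.16: filterByExpr kept 19567 of 56505 rows, libraries were scaled by TMM, and groups were compared by the quasi-likelihood test with no covariate, with Benjamini-Hochberg adjustment over all genes tested (threshold 0.05). The script was tested on simulated data in which few genes changed, so that test does not cover the scaling when most genes change. Log2 fold changes are shCK5 over shControl. Coordinates and exon lengths came from GENCODE 29 on GRCh38, and promoter sequences from RefSeq, which held a window for all but FASN, DGAT1, DGAT2 and FABP5. limma 3.58.1 and DESeq2 1.42.0 gave alternatives. The genes and lists were chosen with earlier results of these data known. Values in each library are given for genes past the threshold that changed at least 2-fold with a mean of at least 1 CPM in a group, and for 7 enzymes of main steps; related genes are the 3 per role with the largest change, and 6 fixed regulators; a related gene that this rule also names is not reported here. Same-numbered replicates did not vary together (r of deviations -0.00606 to 0.00752), so numbers were not treated as pairs. Counts carry no molecular identifiers.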

Additional observations from a re-analysis of the deposited data

How the results depend on the processing

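Over 15 alternative settings, 28 of the 36 tested genes kept both direction and side of the threshold in every one. Under scaling by library size alone, the log2 fold change reversed for ACLY (-0.0733), ACACA (-0.115), ELOVL1 (-0.00468), HADHA (-0.01609), HADHB (-0.126) and PNPLA2 (-0.09244); the all-gene median moved with it. With a filter of at least 1 CPM in 3 libraries, ACACA (-0.02026) and HADHB (-0.03101) reversed and LPIN1 passed; the cause was not tested. Without single libraries HADHB ranged from -0.004778 to 0.03463, and the DGAT2 to DGAT1 difference from -0.1045 to 0.04837, reversed without shCK5 replicate 1. ACLY lost its call with that filter and with halved counts, an alternative chosen after seeing the data, and its adjusted p ranged from 0.00468 to 0.441 over its 15 alternatives. Leaving out 1 library left 16 to 17 of the tested genes that rose and 15 that fell. With the replicate block, 7918 genes in all rose and 8008 fell, with 17 and 15 of those described here, and no call among them changed; the labels do not say that numbers mark a shared culture or day. DESeq2 also gave 17 and 15. The values of CD36 and FABP5 in shControl rest on 18 and 11 counts.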
